A study of Mus musculus with 15 samples.

Results

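The 8 genes described here make, load, clear and degrade GABA or set the chloride gradient on which its effect depends. They were chosen by name, and all 8 were present among the 26835 genes of the Lhx6 table and among the 25714 genes of the Mtg8 table. The libraries are low-input RNA-seq of YFP-labelled cells sorted from the cortex of single mouse embryos at embryonic day 14.5, on a mixed C57BL6/CBA background, in a study of mice of both sexes. Every embryo carried Nkx2-1-Cre and the R26R-YFP reporter, so the label marks cells with a history of Nkx2-1 expression, chiefly interneurons born in the medial ganglionic eminence (MGE). The Lhx6 comparison set 4 control libraries (Lhx6+/+) against 5 mutant libraries (Lhx6-/-, a germline loss-of-function allele). The Mtg8 comparison set 3 control libraries (Mtg8+/+) against 3 libraries labelled Mtg8 mutant (Mtg8-/-, a LacZ insertion in the gene, whose symbol is Runx1t1). The study's methods describe the mutants as littermates of the controls. The labels used here give no litter, so the main fits were unpaired. Both comparisons ask what the migrating interneurons express when a nuclear regulator of their identity is lost, LHX6 being a LIM-homeodomain transcription factor and MTG8 a transcriptional co-regulator.

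GABA is made from glutamate by 2 glutamate decarboxylases, GAD67 (Gad1) and GAD65 (Gad2), packed into vesicles by VGAT (Slc32a1), taken back up by membrane carriers such as GAT3 (Slc6a11), and broken down in mitochondria by GABA transaminase (Abat) and succinic semialdehyde dehydrogenase (Aldh5a1). The chloride importer NKCC1 (Slc12a2) and the chloride exporter KCC2 (Slc12a5) set the direction of the current that GABA evokes. In the developing cortex chloride import prevails over export, so GABA depolarizes immature neurons, and migrating interneurons already contain and sense GABA.

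Of the 8 genes, 6 (not Abat and Slc12a2) were matched in the RefSeq promoter set of GRCm38.p6. Of these, 4 are shown, as the 250 bases before the RefSeq start on the strand of the gene: Gad1 and Gad2 because they encode the enzymes of 1 reaction and their estimates in Lhx6 mutants had opposite signs, neither past the threshold, Slc32a1 as the vesicular partner of both, and Aldh5a1 because it held the only match to a searched motif. The windows lie at chr2:70561879-70562128 (Gad1, plus strand), chr2:22622077-22622326 (Gad2, plus strand), chr2:158610508-158610757 (Slc32a1, plus strand) and chr13:24937662-24937911 (Aldh5a1, minus strand), and the capitals in Aldh5a1 mark the match. The RefSeq starts of Gad1 and Gad2 lie inside the gene spans given further on, which come from GENCODE.
Gad1: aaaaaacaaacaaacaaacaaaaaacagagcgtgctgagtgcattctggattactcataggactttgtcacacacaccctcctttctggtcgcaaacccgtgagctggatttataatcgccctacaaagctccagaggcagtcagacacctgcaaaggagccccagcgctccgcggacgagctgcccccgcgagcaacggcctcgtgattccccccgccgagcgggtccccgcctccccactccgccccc
Gad2: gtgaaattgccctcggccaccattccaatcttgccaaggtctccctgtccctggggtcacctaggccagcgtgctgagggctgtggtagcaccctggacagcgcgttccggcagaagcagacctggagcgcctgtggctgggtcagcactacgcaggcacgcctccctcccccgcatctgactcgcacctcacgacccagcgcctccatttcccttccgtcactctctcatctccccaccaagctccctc
Slc32a1: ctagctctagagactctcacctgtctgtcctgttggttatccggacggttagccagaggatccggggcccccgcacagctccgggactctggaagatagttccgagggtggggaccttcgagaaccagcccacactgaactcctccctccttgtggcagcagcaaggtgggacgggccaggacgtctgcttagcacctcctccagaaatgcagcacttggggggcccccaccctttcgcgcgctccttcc
Aldh5a1: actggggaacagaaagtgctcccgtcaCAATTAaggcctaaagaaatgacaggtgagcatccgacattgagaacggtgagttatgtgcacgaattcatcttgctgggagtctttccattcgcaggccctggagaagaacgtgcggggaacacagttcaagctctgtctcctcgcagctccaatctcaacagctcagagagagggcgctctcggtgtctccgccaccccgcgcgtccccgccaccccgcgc
The letters TAATTA and TAATTG, cores that homeodomain proteins commonly bind, were searched on both strands of windows of 300 bases, from 250 before to 50 after the start. TAATTA occurred in 5.29% of all 32851 windows and in 0 of the 7 windows of these genes, where Slc12a5 has 2 starts. TAATTG occurred in 8.0% of all windows and in 1 of the 7, in Aldh5a1 as the reverse complement CAATTA, starting 223 bases before the start. These counts describe letters in short windows and were not tested.

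Depth lay between 12218422 and 22053032 counted reads per library, and all values below are normalized counts, that is reads divided by the size factor of the library. The 2 tables were normalized separately, so levels are compared only within a table. Lhx6 itself averaged 7247 ± 1093 (SD, n = 4) in controls and 331 ± 99.7 (n = 5) in mutants. Runx1t1 was higher, not lower, in the libraries labelled Mtg8 mutant (12845 ± 944, n = 3) than in their controls (8891 ± 1219, n = 3), without overlap but short of the threshold (log2 fold change 0.54, limma adjusted p = 0.859). Gene totals say nothing of the exons behind them, so these libraries are called by their label. Interneuron markers differed widely in level. Dlx1, a homeobox gene of GABAergic neurons, was abundant, at 8676 to 13903 in Lhx6 controls and 18158 to 20217 in Mtg8 controls. Npas1 was far lower, at 312 to 661 and 82.2 to 177 respectively. Neurod6, a marker of cortical pyramidal neurons, was also abundant, at 8408 to 12817 and 4146 to 10347 respectively. Among the Lhx6 libraries the names of mutants 1, 2, 3 and 5 carry a date, and those of mutant 6 and of the controls carry none. Genotype and the style of the library name are therefore nearly confounded in every Lhx6 result below, and mutant 6 is given apart for the members and for several of the other genes.

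In control libraries the GABA-synthesizing enzymes had the highest mean levels of the 8 genes per length of exon. The length covers all annotated exons of a gene, not the transcripts present. The levels, ratios and ranks between genes given per kilobase depend on it. Before division by length, Gad2 averaged 3728 and Gad1 2585 normalized counts in Lhx6 controls. Per kilobase, Gad2 stood at 634 ± 91.9 normalized counts (SD, n = 4) in Lhx6 controls and Gad1 at 338 ± 42.4. Slc32a1 (75.7 ± 25.3) and Abat (74.3 ± 8.51) followed, and these neighbours did not differ beyond their spread. Below them stood Slc12a2 at 33.6 ± 2.29, Aldh5a1 at 20.6 ± 4.47, Slc12a5 at 12.09 ± 2.38 and Slc6a11 at 0.776 ± 1.08 per kilobase. In Mtg8 controls Gad2 (804 ± 38.1 per kilobase, n = 3) and Gad1 (402 ± 39.9) had the highest means, followed by Abat (286 ± 113) and Slc32a1 (206 ± 42.1). The range of Abat overlapped those of Gad1 and Slc32a1, and in control 4 Abat (416 per kilobase) was above Gad1 (374). Slc12a2 (25.0 ± 6.69) and Aldh5a1 (20.1 ± 6.33) overlapped too, while Slc12a5 (8.92 ± 1.29) and Slc6a11 (1.58 ± 0.317) were lowest. The importer Slc12a2 thus exceeded the exporter Slc12a5 per kilobase in every control library, by 2.25 to 3.28 times in the Lhx6 controls and by 2.47 to 3.14 times in the Mtg8 controls.

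In the Lhx6 comparison 1 member was called higher, Abat, and no member was called lower. A mean normalized count of at least 10 was required for testing, which 7 members met. The call was 1 of 7 at an adjusted p under 0.05 by limma, where 1.71% of 16727 tested genes were called in either direction, 1.03% as higher and 0.682% as lower. At an unadjusted p under 0.05, 3 of the 7 passed (Abat, Slc12a2 and Slc32a1), against 12.7% of all genes. The median log2 fold change of the 7 was 0.67, against -0.04 over all genes tested. Positive values were found in 6 of them, and Gad1 was the exception. With mutant 6 apart, the median difference from the controls was 0.72 in the dated mutants (6 of 7 positive) and 0.13 in mutant 6 (4 of 7 positive).

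Abat encodes the transaminase that begins GABA breakdown and lies at chr16:8513429-8621568 on the plus strand of GRCm38. Its normalized counts were 665, 509, 553 and 577 in Lhx6 controls 1 to 4. They were 1166, 832, 2064, 1099 and 1182 in mutants 1, 2, 3, 5 and 6. Every mutant was above every control, and mutant 3 stood far above the rest. By rank per kilobase, Abat stood above 53.0% of tested genes in Lhx6 controls and 77.3% in Mtg8 controls. Both control groups are wild type for the gene of their comparison, and this difference was not tested. The mean was 2.20-fold higher in mutants, with a log2 fold change of 1.08 (SE 0.22, 95% confidence interval 0.60 to 1.56) and an adjusted p of 0.0256 by limma. An exact two-sided permutation test gave p = 0.0159, where the smallest possible is 0.00794. Of all tested genes, 6.22% had groups without overlap in either direction and 3.19% had every mutant above every control. Against the same 4 undated controls, undated mutant 6 alone was higher by 1.04 on the log2 scale and the 4 dated mutants by 1.09. Without mutant 3 the log2 fold change was 0.89 (adjusted p = 0.0141, limma). The call was lost without any 1 of controls 1, 2, 3 or 4 (log2 fold change 1.02 to 1.15, limma adjusted p = 0.0594 to 0.102) or without mutant 5 (log2 fold change 1.11, adjusted p = 0.0586). The share of all genes called was then 0.949%, 1.04%, 1.18% and 1.03% without controls 1, 2, 3 and 4 and 1.21% without mutant 5. With the name style as a covariate the genotype was estimated from mutant 6 alone against the 4 controls, the difference of 1.04 given above, and the limma adjusted p was 0.631, where 0.341% of genes were called. Controls 1 and 2 and mutant 6 also share a code in their library names, whose meaning the labels do not give. With this code as a covariate, added after the data were seen, the estimate again rested on mutant 6 alone, now against controls 1 and 2. It gave a log2 fold change of 1.02 and a limma adjusted p of 0.18, where 0.526% of genes were called.

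Aldh5a1, at chr13:24907579-24937661 on the minus strand, encodes the next enzyme of the same route. Its normalized counts were 101, 96.6, 115 and 152 in controls 1 to 4. Mutants 1, 2, 3, 5 and 6 had 114, 172, 133, 145 and 145. The groups overlapped broadly, and the log2 fold change of 0.30 (SE 0.23) had an adjusted p of 0.602 by limma. Mutant 6 was higher than the controls by 0.34 on the log2 scale and the dated mutants by 0.29. The 2 enzymes of GABA breakdown therefore differed in outcome of the test, although the difference between them was not itself tested. An antisense transcript, 9330162012Rik, shares 203 bases (3.59%) of the Aldh5a1 exons and reached at most 10.5% of its count, and whether counting used strand is not given in the sources used here.

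**Figure D1:**
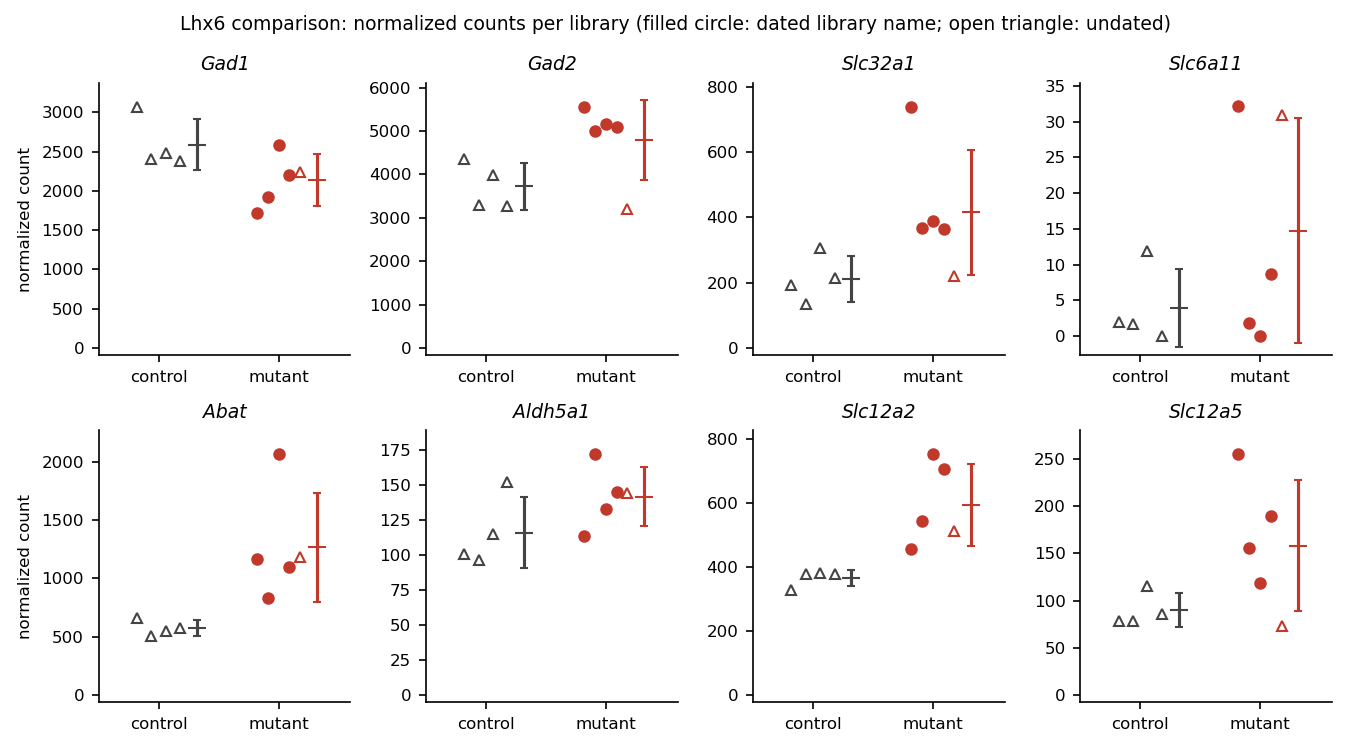
Normalized counts of the 8 genes (vertical axes, linear) in the 4 control and 5 mutant libraries of the Lhx6 comparison, with 1 point per library and the mean ± SD beside the points. Abat and Slc12a2 are higher in every mutant than in every control, and in Gad2, Slc32a1 and Slc12a5 the open triangle of mutant 6 lies among or below the controls.

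The chloride importer Slc12a2, at chr18:57878678-57946821 on the plus strand, was the second member whose Lhx6 groups did not overlap. Controls 1 to 4 had 329.7, 379, 382 and 377 normalized counts, a spread of 6.81% of the mean. Mutants 1, 2, 3, 5 and 6 had 455, 545, 753, 705 and 514. The mutant mean was 1.62-fold higher and the log2 fold change was 0.67 (SE 0.18, 95% confidence interval 0.28 to 1.06), but the adjusted p was 0.0982 by limma, short of the threshold. The exact permutation p was 0.0159. DESeq2 on the recovered reads called it (adjusted p = 0.00735, with 4.78% of genes called), as did limma without mutant 1 (adjusted p = 0.0347, with 1.85% called), whereas edgeR did not (adjusted p = 0.0927, with 1.67% called). Mutant 6 alone was higher than the controls by 0.49 on the log2 scale and the dated mutants by 0.72.

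The chloride exporter Slc12a5, at chr2:164960802-164999731 on the plus strand, was measured at 78.8, 78.9, 116 and 86.4 in controls 1 to 4. The mutants had 255, 156, 118, 190 and 73.1, so mutants 1, 2, 3 and 5 were above all controls and mutant 6 below all of them. The log2 fold change over all 5 mutants was 0.71 (SE 0.33) with an adjusted p of 0.405 by limma. Against the undated controls it was 0.95 for the dated mutants and -0.28 for mutant 6. The positive estimate thus rests on mutants 1, 2, 3 and 5.

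The balance of the 2 chloride carriers varied among mutants without a common direction. Per kilobase, the ratio of Slc12a2 to Slc12a5 was 2.84 ± 0.434 (SD, n = 4) in Lhx6 controls and 3.06 ± 1.48 (n = 5) in mutants. Mutant 1 had the lowest ratio, 1.22, and mutant 6 the highest, 4.797. Import transcripts exceeded export transcripts in all 5 mutants. This ratio was described without a test.

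The 2 decarboxylases of the Lhx6 mutants differed in the sign of their estimates. Gad1, at chr2:70553072-70602014 on the plus strand, encodes GAD67, the enzyme of most cytosolic GABA. It had 3067, 2407, 2485 and 2383 normalized counts in controls 1 to 4 and 1719, 1926, 2587, 2199 and 2239 in mutants 1, 2, 3, 5 and 6. Only mutant 3 reached the control range, and the other 4 mutants were below all controls. The mutant mean was 82.5% of the control mean, with a log2 fold change of -0.28 (SE 0.14, 95% confidence interval -0.59 to 0.03) and an adjusted p of 0.440 by limma. The estimate was -0.20 for mutant 6 and -0.30 for the dated mutants. A processed pseudogene, Gad1-ps on chromosome 10, held at most 2.39% of the Gad1 count in any Lhx6 library. Reads that match both copies may be counted for neither, so the Gad1 values are uncertain by an amount that was not measured.

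Gad2, at chr2:22622205-22693874 on the plus strand, encodes GAD65, the decarboxylase associated with synaptic vesicles. Controls 1 to 4 had 4359, 3286, 3996 and 3269 normalized counts. Mutants 1, 2, 3 and 5 had 5551, 4990, 5156 and 5094, all above the controls, and mutant 6 had 3191, below the lowest control. The log2 fold change was 0.35 (SE 0.17) with an adjusted p of 0.413 by limma. It was 0.49 for the dated mutants and -0.21 for mutant 6, which is the only undated mutant, so name style and this single library cannot be told apart. Per kilobase the ratio of Gad1 to Gad2 was 0.478 to 0.563 in controls. It was 0.238, 0.297, 0.386 and 0.332 in the dated mutants 1, 2, 3 and 5 and 0.540 in mutant 6. All 4 dated mutants were thus below the control range and mutant 6 inside it.

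Slc32a1, at chr2:158610767-158615748 on the plus strand, encodes the vesicular carrier of GABA and glycine. Its normalized counts were 192, 136, 306 and 213 in controls 1 to 4 and 738, 368, 389, 363 and 222 in mutants 1, 2, 3, 5 and 6. Mutant 1 had the highest value and mutant 6 fell inside the control range. The log2 fold change was 0.92 (SE 0.32, 95% confidence interval 0.23 to 1.61), with an adjusted p of 0.225 by limma and an exact permutation p of 0.0476. Dated mutants were higher by 1.12 and mutant 6 by 0.13. An antisense transcript, Gm14205, shares 697 bases (24.9%) of its exons but held at most 1.0% of its count in the Lhx6 libraries.

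Slc6a11, at chr6:114131241-114249952 on the plus strand, encodes a GABA carrier best known from astrocytes, and was close to the detection limit. Lhx6 controls 1 to 4 had 2, 2, 13 and 0 reads, and mutants 1, 2, 3, 5 and 6 had 26, 2, 0, 9 and 25. The libraries without a read allow up to 2.57 normalized counts (control 4) and 2.79 (mutant 3), at 3 reads each, for counting error only. Its mean of 9.93 normalized counts was below the minimum, so it was not among the tested genes. Without the minimum, its log2 fold change was 1.29 with an adjusted p of 0.770 by limma. Against the controls mutant 6 was higher by 3.32 on the log2 scale and the dated mutants by 0.78. Its size rested on single libraries, at 0.73 without control 4 and 2.03 without mutant 3. An exact two-sided permutation test of log2(normalized count + 1) gave p = 0.373, and no difference was detectable between these libraries.

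Sums of marker genes are given here beside the values of the Lhx6 libraries. The summed count of 5 genes of caudal ganglionic eminence interneurons was 1182 to 1377 in Lhx6 controls and 2188 to 2866 in mutants, without overlap, with Adarb2 called higher, Htr3a called lower and Prox1 not called. Mutant 3, which had the highest Abat and Slc12a2, also had the highest sum of 11 interneuron markers (47883, against 31527 to 45285 in controls) and the lowest sum of 11 pyramidal markers (13472, against 16995 to 22536). The pyramidal sum was below every control in all 4 dated mutants (13472 to 15782) and inside the control range in mutant 6 (18357). The sum of 8 glial markers in mutant 3 was 1062, against 373 to 591 in controls. The sum of 5 erythroid markers varied widely, at 5966 to 58615 in controls, highest in control 3, and 1798 to 20401 in mutants. The sum of 7 microglial markers was 403 in mutant 3, 157 to 181 in mutants 1, 2 and 6 and 16.5 in mutant 5, against 38.1 to 147 in controls. Mutant 6, which had the lowest Gad2 and Slc12a5, had the highest sum of 9 progenitor markers (18299, against 9852 to 11964 in controls) and the lowest sums of interneuron markers (28173) and of 6 markers of neuronal maturation (50608, against 53775 to 56812). The maturation sum was above every control in dated mutants 1, 3 and 5 (64764, 68649 and 61503) and inside the control range in dated mutant 2 (56284). Abat in mutant 6 (1182) was above every control, unlike Gad2 and Slc12a5 in that library. The part of the marker differences in the results was not tested. In bulk RNA from sorted cells, fewer cells of a type and less RNA per cell cannot be told apart.

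In the libraries labelled Mtg8 mutant, 0 of 8 members passed an adjusted p of 0.05 by limma, where 0 of 16132 tested genes did. DESeq2 called 30 genes (0.186%) and edgeR 1 (0.0062%), none of them a member. At an unadjusted p under 0.05, 2 members passed, Gad2 (lower) and Slc6a11 (higher), against 5.49% of all genes (886 genes). With 3 libraries against 3, an exact permutation test cannot give a p below 0.1. The members' median log2 fold change was -0.03, against -0.01 over all genes, with 4 positive and 4 negative estimates.

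Gad2 had 4858, 4468 and 4854 normalized counts in Mtg8 controls 1, 2 and 4. The labelled mutants 2, 3 and 4 had 3064, 2035 and 4512. Labelled mutants 2 and 3 were below all controls and labelled mutant 4 lay just above the lowest control. The mean was 67.8% of the control mean, and the log2 fold change was -0.63 (SE 0.25, 95% confidence interval -1.18 to -0.09) with an adjusted p of 0.859 by limma. It was -0.60 among the dated libraries (2 controls, 1 labelled mutant) and -0.68 among the undated ones (1 control, 2 labelled mutants). Its size rested on single libraries, at -0.34 without labelled mutant 3 and -0.92 without labelled mutant 4.

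Gad1 had a smaller estimate than Gad2, with an interval on both sides of 0. Controls 1, 2 and 4 had 3423, 2948 and 2853, and labelled mutants 2, 3 and 4 had 2566, 2661 and 3619. Labelled mutants 2 and 3 were again below all controls, while labelled mutant 4 was above them all. The log2 fold change was -0.07 (95% confidence interval -0.49 to 0.35, limma adjusted p = 0.964). The ratio of Gad1 to Gad2 per kilobase was 0.542, 0.507 and 0.452 in controls and 0.644, 1.01 and 0.617 in labelled mutants 2, 3 and 4. All 3 labelled mutants were above all 3 controls. Among single genes of this comparison, 10.2% of those tested had groups without overlap in either direction. In the Lhx6 comparison the dated mutants were below their controls, and mutant 6 (0.540) was inside the control range. The 2 comparisons used separate controls, and the difference between them was not tested.

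**Figure D2:**
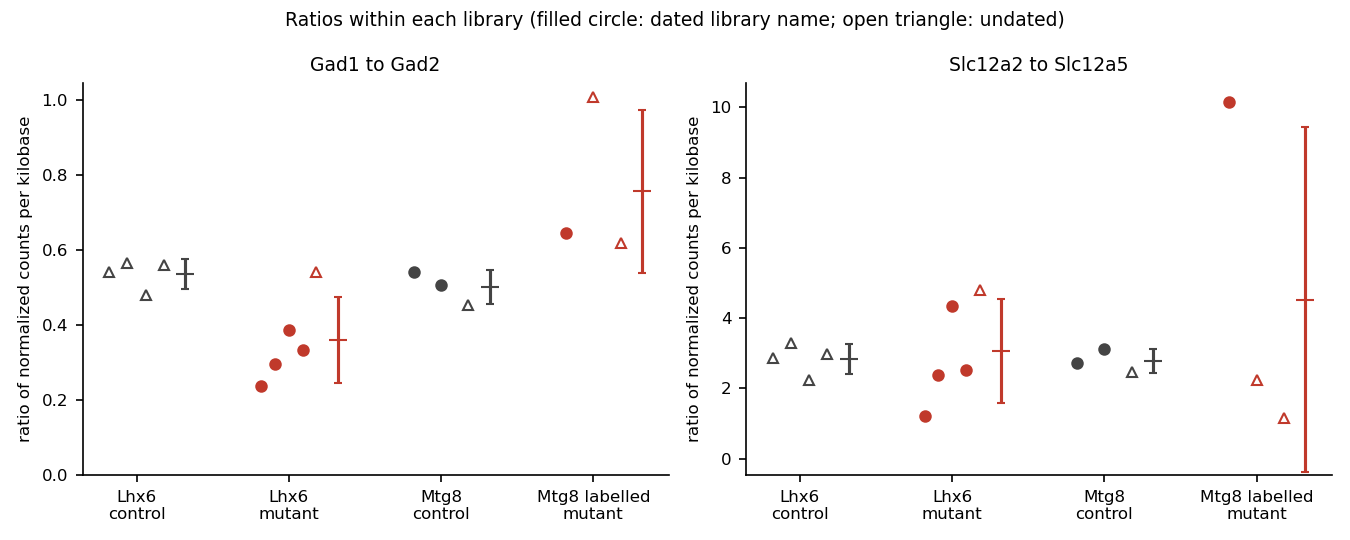
Ratio of Gad1 to Gad2 (left) and of Slc12a2 to Slc12a5 (right), each from normalized counts per kilobase of exon, with 1 point per library and the mean ± SD beside the points. Gad1 to Gad2 ranges from 0.478 to 0.563 in Lhx6 controls and from 0.452 to 0.542 in Mtg8 controls. The dated Lhx6 mutants lie below and the labelled Mtg8 mutants above their controls. Slc12a2 to Slc12a5 spreads more widely in Lhx6 mutants and in labelled Mtg8 mutants than in their controls.

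Slc32a1 followed the order of Gad2 among the labelled mutants. It had 449, 681 and 601 in Mtg8 controls 1, 2 and 4 and 361, 324 and 630 in labelled mutants 2, 3 and 4. Labelled mutants 2 and 3 were below all controls and labelled mutant 4 inside their range. The log2 fold change was -0.44 (SE 0.28, limma adjusted p = 0.866). Single libraries also moved this estimate, to -0.25 without labelled mutant 3 and to -0.73 without labelled mutant 4.

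Slc6a11 was the only member whose groups did not overlap in the Mtg8 comparison, where 10.2% of tested genes showed no overlap and 4.68% had every labelled mutant above every control. It rested on 6, 7 and 10 reads in controls 1, 2 and 4 and on 15, 16 and 39 reads in labelled mutants 2, 3 and 4. These correspond to 6.71, 7.47 and 9.78 normalized counts and to 16.99, 14.7 and 29.8. The log2 fold change was 1.21 (SE 0.53, 95% confidence interval 0.06 to 2.36) with an adjusted p of 0.859 by limma, and the exact permutation p was 0.1, the smallest possible. The sum of 7 glial markers, of which the gap junction gene Gja1 held the largest part (298 to 414 in controls and 249 to 545 in labelled mutants), was 323 to 737 in controls and 475 to 917 in labelled mutants. Of these markers 5 were tested, none was called, and all 5 estimates were positive, with a median log2 fold change of 1.51. Olig1 (1.51), Pdgfra (2.05) and Olig2 (2.23) had larger estimates than Slc6a11, and Gja1 (0.16) and Aldh1l1 (0.51) had smaller ones. The larger estimates rested on overlapping ranges that reached low counts. Controls and labelled mutants had 1.07 to 137 and 2.27 to 210 for Olig1, and 5.33 to 114 and 35.1 to 242 for Pdgfra. Olig2 had 0 to 10.8 and 4.53 to 37.5. Aqp4, a water channel of astrocytes, was at 0 to 14.5 and 4.59 to 15.9. Their part in the values of Slc6a11 was not tested.

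Abat, which rose in Lhx6 mutants, had a negative estimate in the Mtg8 comparison, without a test of one estimate against the other. It had 1755, 1667 and 3227 normalized counts in Mtg8 controls 1, 2 and 4 and 1716, 1039 and 1842 in labelled mutants 2, 3 and 4. Control 4 stood far above the other libraries, and labelled mutant 3 was the lowest. The log2 fold change was -0.51 (SE 0.29, 95% confidence interval -1.13 to 0.12, limma adjusted p = 0.864). Without control 4, the estimate was -0.20. Among the dated libraries the difference was 0.0050, and among the undated ones, where control 4 is the only control, it was -1.22, so the negative sign rests on the undated libraries. Aldh5a1 had 135, 133 and 72.4 in controls and 128, 106 and 135 in labelled mutants, a log2 fold change of 0.16 (SE 0.31, limma adjusted p = 0.952) whose sign turned without control 4 (-0.13).

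The chloride carriers did not separate the Mtg8 groups. Slc12a2 had 258, 353 and 209 in controls 1, 2 and 4 and 355, 278 and 246 in labelled mutants 2, 3 and 4, with a log2 fold change of 0.12 (95% confidence interval -0.46 to 0.69, limma adjusted p = 0.962). Slc12a5 had 64.8, 76.8 and 57.7 in controls and 23.8, 84.6 and 144 in labelled mutants, so labelled mutant 2 was below and labelled mutants 3 and 4 above all controls. Its log2 fold change was 0.01 (95% confidence interval -1.13 to 1.15, limma adjusted p = 0.999). Per kilobase, Slc12a2 exceeded Slc12a5 by 10.2 times in labelled mutant 2, 2.25 times in labelled mutant 3 and 1.17 times in labelled mutant 4. The labelled mutants bracketed the control ratios, which lay between 2.47 and 3.14. Among the dated and the undated libraries of this comparison, opposite signs were also found for Gad1 (-0.31 and 0.12), Aldh5a1 (-0.07 and 0.72) and Slc12a5 (-1.53 and 0.92).

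**Figure D3:**
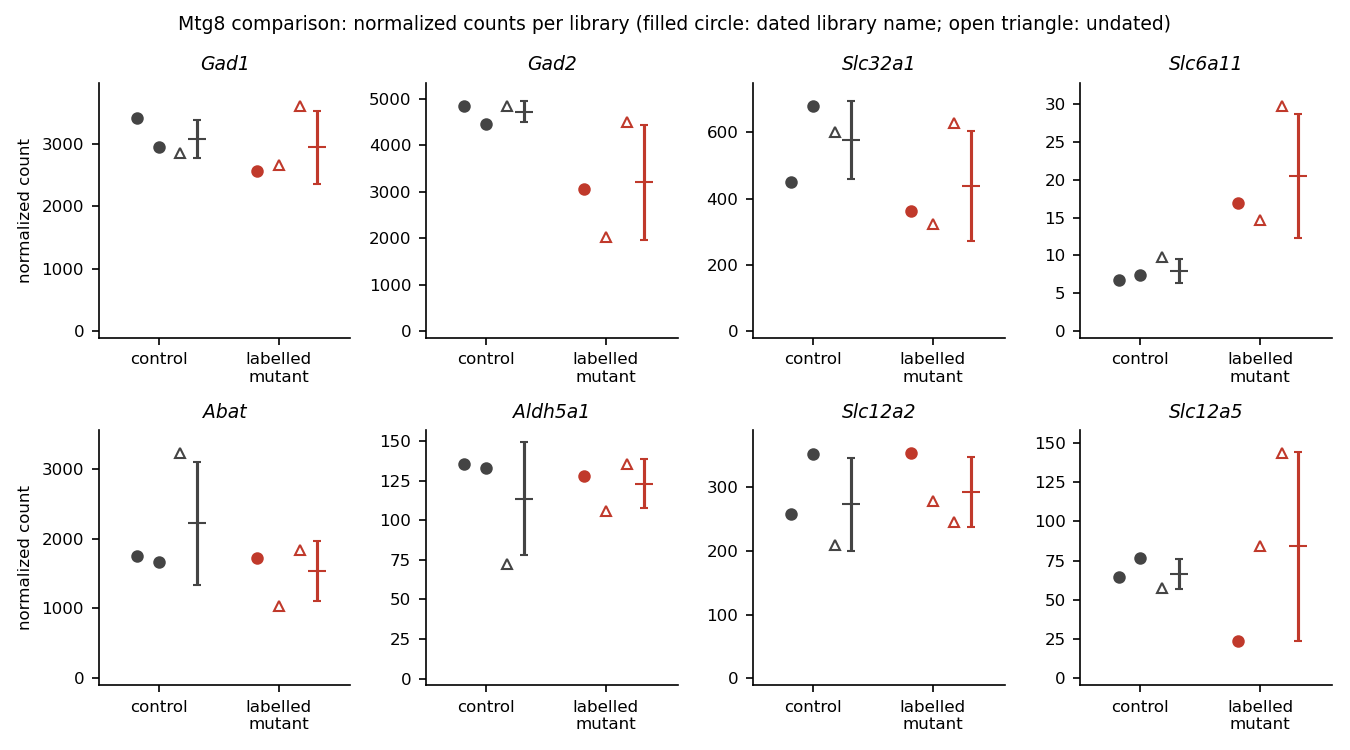
Normalized counts of the 8 genes (vertical axes, linear) in the 3 control libraries and the 3 libraries labelled mutant of the Mtg8 comparison, with 1 point per library and the mean ± SD beside the points. Only Slc6a11, at 6.71 to 9.78 in controls and 14.7 to 29.8 in labelled mutants, separates the groups, and Slc12a5 spreads from 23.8 to 144 among the labelled mutants.

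Sums of cell type markers are given for the Mtg8 libraries beside these values, and no gene of these marker lists was called. The sum of 11 interneuron markers was 56720 to 57495 in controls and 40520, 35135 and 53475 in labelled mutants 2, 3 and 4, in the same order as Gad2 and Slc32a1. The sum of 9 progenitor markers was 6538 to 8175 in controls and 9208 to 13002 in labelled mutants, highest in labelled mutant 3. The sum of 11 pyramidal markers was 5843 to 14267 in controls and 9146 to 23030 in labelled mutants, overlapping, and all 11 estimates were positive. Their part in the values of Gad2 and Slc32a1 was not tested.

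**Figure D4:**
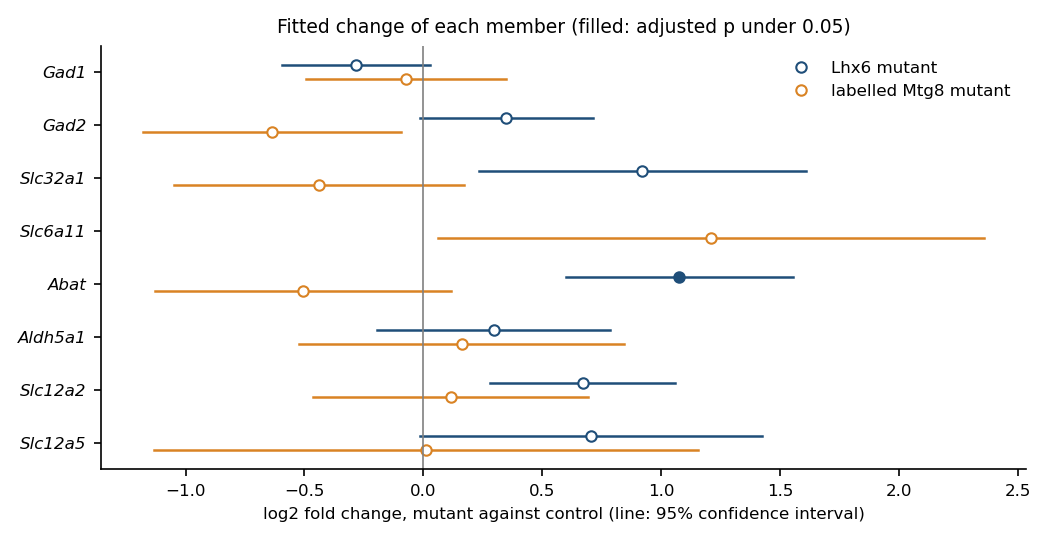
Log2 fold change (horizontal axis) of each gene in Lhx6 mutants and in libraries labelled Mtg8 mutant, each against its own controls, with 95% confidence intervals from limma. Abat in the Lhx6 comparison, at 1.08, is the only filled point (adjusted p under 0.05), and Slc6a11 has no Lhx6 point because it was not tested there.

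The rest of the GABA pathway was examined through 27 other genes for GABA and related carriers, the supply of glutamate and glutamine, the putrescine route and the pyridoxal phosphate cofactor. Of these 22 were in each table. In the Lhx6 comparison 18 were tested, 0 were called, 2 had an unadjusted p under 0.05 (against 12.7% of all genes), and 14 had negative estimates, with a median log2 fold change of -0.22 against -0.04 over all genes. Slc38a3, a glutamine carrier, averaged 27.9 ± 11.6 (SD, n = 4) in controls and 20.5 ± 15.6 (n = 5) in mutants, a log2 fold change of -1.10 with an adjusted p of 0.635 by limma. Against the controls it was -1.52 for the dated mutants and 0.61 for mutant 6. Among the genes highest per kilobase, Odc1 of the putrescine route and the glutamate dehydrogenase gene Glud1 had log2 fold changes of 0.20 and -0.08.

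In the Mtg8 comparison 17 of these genes were tested, 0 were called and 0 had an unadjusted p under 0.05 (limma), with a median of 0.04. Slc38a3 had the largest estimate, 0.72, at 25.1 ± 10.5 (SD, n = 3) in controls and 40.4 ± 6.0 in labelled mutants. Glul, the glutamine synthetase gene, and the glutamine carrier Slc38a2 had log2 fold changes of -0.32 and 0.04.

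Chloride handling was examined through 33 other genes for cotransporters, their WNK and SPAK regulators, chloride channels and exchangers and the partners of KCC2. In the Lhx6 comparison 27 were tested and 0 were called, 5 had an unadjusted p under 0.05 (against 12.7% of all genes), and the median was -0.07 (against -0.04). Clcn2, a chloride channel gene, averaged 91.4 ± 12.7 in controls and 38.0 ± 21.2 in mutants without overlap, a log2 fold change of -1.48 with a limma adjusted p of 0.179, made up of -1.72 in the dated mutants and -0.52 in mutant 6. Wnk4, a kinase gene of cotransporter control, averaged 22.5 ± 8.93 and 14.6 ± 7.53, with differences of -0.41 and -1.63. The abundant Ckb (brain creatine kinase), Ppp1ca (a catalytic subunit of protein phosphatase 1) and Clcn4 (a chloride-proton exchanger) had log2 fold changes of -0.14, -0.24 and -0.07.

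In the Mtg8 comparison 29 of the chloride genes were tested and 0 were called, 2 had an unadjusted p under 0.05 (limma, against 5.49% of all genes), and the median was -0.19 (against -0.01). Slc26a11, an anion transporter gene, averaged 9.23 ± 4.76 (n = 3) in controls and 35.3 ± 21.5 in labelled mutants without overlap, a log2 fold change of 1.77 with a limma adjusted p of 0.859. Nrg1, a ligand of ERBB4, averaged 209 ± 43.6 and 392.5 ± 132. Ckb and Ppp1ca had log2 fold changes of 0.15 and 0.34, neither past the threshold.

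**Figure D5:**
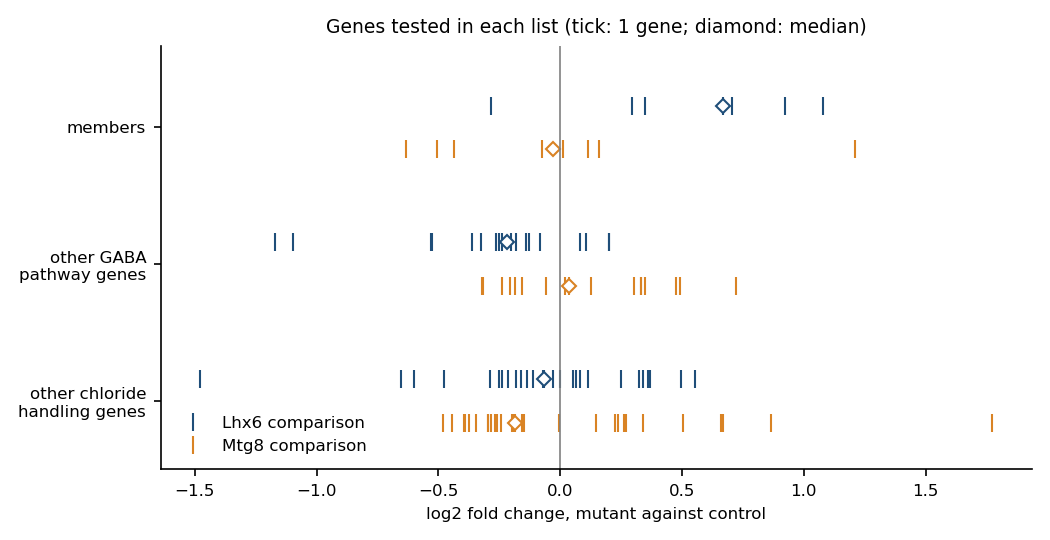
Log2 fold change (horizontal axis) of every tested gene of the members, of the other GABA pathway genes and of the other chloride handling genes, with 1 tick per gene and a diamond at the median of each list. The members' median is 0.67 in the Lhx6 comparison and -0.03 in the Mtg8 comparison, and the medians of the other lists lie between -0.22 and 0.04.

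The genes whose profile over the 9 Lhx6 libraries was most like that of Abat were sought among 16726 others by the root mean square difference of log2 values centred on each gene's mean. Wdr81 was nearest (0.193), followed by Wls (0.237), the carrier of WNT proteins, and Dlx5 (0.241), a homeobox gene of GABAergic neurons, where the median gene had 0.755. Wls averaged 1606 ± 308 (SD, n = 4) in controls and 3616 ± 598 (n = 5) in mutants. Dlx5 averaged 2132 ± 161 and 4358 ± 600, and Wdr81 70.1 ± 2.02 and 126 ± 41.5. The log2 differences from the controls in the dated mutants and in mutant 6 were 1.24 and 0.93 for Wls, 1.07 and 0.85 for Dlx5, and 0.83 and 0.56 for Wdr81. Likeness of profile here is a description over 9 libraries that share their groups.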

How the data were processed

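RNA was measured in 15 libraries of single embryos, each a separate sample by its label. Per the labels and the study's methods, the authors used fastp 0.20.1 for trimming, STAR 2.7b for alignment to GRCm38.p6 and featureCounts 1.6.4 for counting, and left out sex-linked genes, which are not analysed here. The deposited signal is the count divided by the DESeq2 size factor. The comparison columns that the authors deposited (log2 fold changes, a score, p-values and adjusted p-values) were not used. Whole reads were recovered by dividing by the value of 1 read, with 100.0% whole within 0.01.

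Each table was fitted alone with limma 3.58.1 (R 4.3.3, with trend) after taking log2(normalized count + 1). A gene entered with an average of 10 or more. P-values were two-sided, adjusted by Benjamini-Hochberg over all tested genes, with a threshold of 0.05. On this scale the pseudocount shrinks the fold changes of low genes, whereas 1 library near 0 can enlarge them. A covariate that leaves 1 mutant library to compare assumes that it varies like the others. The procedure was tested on simulated data. Alternatives were edgeR 4.0.16, DESeq2 1.42.0, TMM factors, other pseudocounts and filters, a replicate block, the style of the library name, a code within it (added after the data were seen) and each library left out. The members and lists were chosen with earlier results of these data known. Named genes were the members, Lhx6 and Runx1t1, and from each other list any called gene, the 3 highest per kilobase in controls and the 2 largest log2 fold changes, plus the 3 profiles nearest Abat. Some genes that this rule names are not reported here. Marker genes were named where a result turned on them, after their values were seen. The number of embryos limits the precision, and intervals and floors cover counting error only where they rest on reads.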

Additional observations from a re-analysis of the deposited data

Results flagged for a closer look

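In 5 of the 16 groups of 4 or 5 libraries, 1 library stood apart from the others by Dixon's criterion, which chance meets in about 1 in 20 groups. All 16 groups belong to the Lhx6 comparison, since groups of 3 libraries were not examined. Gad1 was high in control 1, at 3067 normalized counts, where the next control had 2485. Gad2 was low in mutant 6, at 3191, where the next mutant had 4990. Slc6a11 was high in control 3, at 11.98 normalized counts (13 reads). Abat was high in mutant 3, at 2064, where the next mutant had 1182. Slc12a2 was low in control 1, at 329.7, where the other controls lay between 377 and 382.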

How the results depend on the processing

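Of the members' log2 fold changes under the alternatives, 239 kept their direction and their side of the threshold, 8 lost the threshold, 2 gained it and 19 turned sign. In the Lhx6 comparison 286 genes and 1 member (Abat) were called. DESeq2 called 796 genes and 2 members (Abat and Slc12a2), the name style covariate 57 genes and 0 members, and leaving out 1 library gave 159 to 492 genes and 0 to 2 members. With the name style covariate, which in the Lhx6 comparison sets mutant 6 alone against the controls, Gad2 was at -0.21 and Slc12a5 at -0.28, the differences of that library. The sign of Slc12a5 turned to -0.30 in the Mtg8 comparison. DESeq2 also called 1 gene of each other list, among the chloride genes Clcn7. In the Mtg8 comparison no filter gave 1 call, a minimum mean of 50 gave 2, edgeR 1, DESeq2 30, and leaving out 1 library 0 to 87 (87 without labelled mutant 2), with 0 members throughout. Leaving out 1 Mtg8 library moved Gad2 between -0.92 and -0.34, Slc32a1 between -0.73 and -0.25, Gad1 between -0.23 and 0.018, Aldh5a1 between -0.13 and 0.31, Slc12a2 between -0.059 and 0.32 and Slc12a5 between -0.54 and 0.73 (log2). The cause of these shifts was not tested, beyond the smaller number of libraries.

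A code shared within library names (Lhx6 controls 1 and 2 and mutant 6, Lhx6 mutants 2 and 5, Mtg8 controls 1 and 2 and labelled mutant 2), used as a covariate after the data were seen, left 88 genes and 0 members called in the Lhx6 comparison and 15 and 0 in the Mtg8 comparison. These fits rest on 1 mutant library each, Lhx6 mutant 6 and labelled Mtg8 mutant 2, against controls 1 and 2 of its table. Signs turned for Gad2 (-0.25) and Slc12a5 (-0.11) in the former and for Abat (0.0050), Aldh5a1 (-0.068) and Slc12a5 (-1.53) in the latter.

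The labels do not say that replicate numbers mark pairs. Deviations of same-numbered libraries correlated at -0.15 to 0.07 over 3 Lhx6 pairs, against a mean of 0.004 for other pairs, and at 0.14 to 0.16 over 2 Mtg8 pairs, against a mean of -0.043 and a maximum of 0.078 for other pairs. With a replicate block, 86 genes and 0 members were called in the Lhx6 comparison (Abat 1.14, limma adjusted p = 0.257) and 100 genes and 0 members in the Mtg8 comparison, where Gad2 stood at -0.32, the signs of Gad1 (0.071) and Slc12a5 (-0.17) turned and Slc26a11 of the chloride genes was called. Slc6a11 rested on 0 to 39 reads per library, in each library the lowest count of the 8 genes.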

Other observations

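Within each table's controls, genes were ranked by normalized count per kilobase. Gad2 stood above 88.4% of tested genes in Lhx6 controls and 89.5% in Mtg8 controls, and Gad1 above 81.6% and 82.2%. Abat stood above 53.0% in Lhx6 controls and 77.3% in Mtg8 controls, and Slc32a1 above 53.5% and 71.6%. Slc12a2 stood above 36.0% and 28.4%, Aldh5a1 above 26.7% and 24.8% and Slc12a5 above 18.60% and 13.2%. Both control groups are wild type for the gene of their comparison, and these ranks were not tested between the tables.

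Runx1t1 was higher in Lhx6 mutants, at 17972 ± 5387 (SD, n = 5) against 7449 ± 1072 (n = 4) in controls, a log2 fold change of 1.23 with an adjusted p of 0.00401 by limma. The difference was 1.36 for the dated mutants and 0.73 for undated mutant 6, and genotype and name style are nearly confounded here too. The coefficient of variation of Slc12a5 was 19.7% in Lhx6 controls and 43.8% in mutants, and 14.5% in Mtg8 controls and 71.4% in labelled mutants.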
